A study of Mus musculus with 16 samples.

Results

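The mammary gland and its fat pad read steroid hormones and prolactin from the blood through a small set of receptor genes, and 8 genes of this kind were followed here. They were chosen by name and make up 8 of the 23179 genes in the deposited table. They encode the estrogen receptor alpha (Esr1), the progesterone receptor (Pgr), the glucocorticoid receptor (Nr3c1), the mineralocorticoid receptor (Nr3c2), the prolactin receptor (Prlr), the enzyme 11beta-hydroxysteroid dehydrogenase type 1 (Hsd11b1), the receptor cochaperone FKBP51 (Fkbp5) and GREB1 (Greb1), a chromatin-bound cofactor and target gene of the estrogen receptor. All 8 were found and all 8 passed the filter on low values, which kept 21218 genes.

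RNA was sequenced from the mammary fat of 16 female C57BL/6N mice (genotype wt), 4 separate animals in each of 4 groups. CON-LFD mice ate the control diet D12450J and were never made obese. The other mice became obese on D12492, a 60% high-fat diet, and then either stayed obese on it (DIO-HFD), lost weight on low-fat diet (DIO-LFD), or lost weight after vertical sleeve gastrectomy, an operation that removes much of the stomach, combined with low-fat diet (DIO-VSG). Mice without the gastrectomy had sham surgery. Every mouse, controls included, carried an E0771 tumor (a mouse mammary cancer line) injected into mammary fat pad 4 at 22 weeks after randomization, and the normal contralateral pad 9 was the tissue sequenced. The labels also list E0771 as cell line and a mammary cancer cell type, which describe the injected tumor.

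The libraries held 46907377 to 57610899 reads each, and values below are normalized counts, that is, reads divided by the authors' size factor for the library. The tissue label was checked against marker genes: all 7 adipocyte markers were above 0 in every library, with summed normalized counts of 466060.2 to 1691986, and so were all 10 luminal epithelium markers, at 30238 to 129865. Lymphocyte content varied widely within groups. The 9 B cell markers summed to 322 to 77482 in CON-LFD, 1104 to 102737 in DIO-HFD, 18397 to 42078 in DIO-LFD and 69977 to 81296 in DIO-VSG libraries. Keratinocyte markers reached 11044 in 1 DIO-HFD library, against 1095 to 2745 in all libraries of the other groups, and skeletal muscle markers ranged from 436 to 129543.

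Steroid receptors are ligand-regulated transcription factors. In the cell they wait in complexes with heat shock proteins and cochaperones, bind their hormone, and then act at response elements in DNA. The prolactin receptor instead sits in the cell membrane and signals through JAK2 and STAT5. In the mouse mammary gland, estrogen and progesterone act on a subset of luminal epithelial cells that carry both receptors and pass the signal to their neighbours, and prolactin drives alveolar differentiation and milk synthesis. In adipose tissue, glucocorticoids shape adipocyte differentiation and metabolism, and Hsd11b1 regenerates active glucocorticoid inside the cell.

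Promoter windows are shown for Prlr and Hsd11b1, which were lowest on average in DIO-HFD and had the smallest P among the 8 genes, and for Pgr, Greb1 and Fkbp5, which had the widest intervals, because the response elements of these receptors are short sequence motifs. They are the 250 bases before the transcription start in RefSeq (GRCm38.p6), written 5′ to 3′ on the gene's own strand. Capitals mark a half-site of an estrogen response element (AGGTCA) or of a glucocorticoid response element (AGAACA), read on either strand.
Pgr, chr9:8899583-8899832, plus strand: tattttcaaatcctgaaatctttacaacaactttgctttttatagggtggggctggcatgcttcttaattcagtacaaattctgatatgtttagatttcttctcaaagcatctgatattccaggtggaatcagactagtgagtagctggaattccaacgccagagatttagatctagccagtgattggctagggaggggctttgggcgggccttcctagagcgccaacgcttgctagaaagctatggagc
Greb1, chr12:16800887-16801136, minus strand, 1 of 2 Greb1 windows: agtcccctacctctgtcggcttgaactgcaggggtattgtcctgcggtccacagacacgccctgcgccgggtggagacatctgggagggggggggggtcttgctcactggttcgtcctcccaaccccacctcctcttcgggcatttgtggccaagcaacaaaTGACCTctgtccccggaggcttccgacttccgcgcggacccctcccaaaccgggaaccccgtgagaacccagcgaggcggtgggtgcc
Fkbp5, chr17:28486150-28486399, minus strand: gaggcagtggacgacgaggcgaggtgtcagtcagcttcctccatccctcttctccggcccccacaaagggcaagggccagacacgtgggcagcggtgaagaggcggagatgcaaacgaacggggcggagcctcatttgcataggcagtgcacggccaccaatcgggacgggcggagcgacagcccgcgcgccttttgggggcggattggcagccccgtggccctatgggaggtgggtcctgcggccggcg
Prlr, chr15:10223656-10223905, plus strand, 1 of 3 Prlr windows: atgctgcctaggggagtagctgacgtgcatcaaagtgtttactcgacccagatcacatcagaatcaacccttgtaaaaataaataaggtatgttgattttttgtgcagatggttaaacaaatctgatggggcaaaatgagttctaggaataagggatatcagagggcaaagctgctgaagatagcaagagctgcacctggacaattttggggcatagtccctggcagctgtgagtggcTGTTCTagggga
Hsd11b1, chr1:193242361-193242610, minus strand: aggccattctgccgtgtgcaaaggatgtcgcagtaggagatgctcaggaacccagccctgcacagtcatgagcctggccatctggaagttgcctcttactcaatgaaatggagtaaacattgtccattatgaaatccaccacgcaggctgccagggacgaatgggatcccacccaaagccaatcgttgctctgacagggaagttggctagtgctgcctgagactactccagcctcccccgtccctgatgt

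Windows of 7 members, 11 in all, were searched on both strands. The full estrogen response element (GGTCANNNTGACC) and the full glucocorticoid response element (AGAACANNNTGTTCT, which contains the AGAACA half-site) were in none of the 11. The Greb1 window above held the estrogen half-site at position -88 from the start and the Prlr window held the glucocorticoid half-site at position -12, both on the opposite strand. The Pgr, Fkbp5 and Hsd11b1 windows, the second Greb1 window and the other 2 Prlr windows held neither half-site. Half-sites are common: AGGTCA was in 14% and AGAACA in 16.1% of all 32851 windows of 250 bases, while the full elements were in 0.0639% and 0.00913%. The absence of these letters says nothing of elements elsewhere in the gene.

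Levels between genes were compared only per kilobase of merged exon. On this scale, averaged over the 16 libraries, Prlr was highest at 1698 normalized counts per kilobase, followed by Nr3c1 at 1321, Hsd11b1 at 1086, Fkbp5 at 672, Esr1 at 364 and Pgr at 349.9. Nr3c2 (161) and Greb1 (32.4) were lowest. The order was not the same in each group. In DIO-HFD Nr3c1 (1425 per kilobase) was above Prlr (838), and Esr1 (301) above Pgr (182). In DIO-LFD Hsd11b1 (1927, SD 1614.5) was above Nr3c1 (1269, SD 237), and Pgr (589, SD 327) above Esr1 (319.8, SD 62.7). The place of Hsd11b1 above Nr3c1 there depends on DIO-LFD replicate 1, which held 18169 normalized counts against 2718 to 6855 in the rest of its group. How much animals of a group varied differed by gene and by group. In DIO-LFD the highest library exceeded the lowest 18.2-fold for Fkbp5, 9.62-fold for Greb1, 6.69-fold for Hsd11b1 and 6.58-fold for Pgr, against 1.52-fold for Nr3c1 and 1.13-fold for Nr3c2. In DIO-HFD the ratio was 1.94 for Fkbp5 and 1.65 for Hsd11b1, below the 2.21 of Nr3c2.

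**Figure D1:**
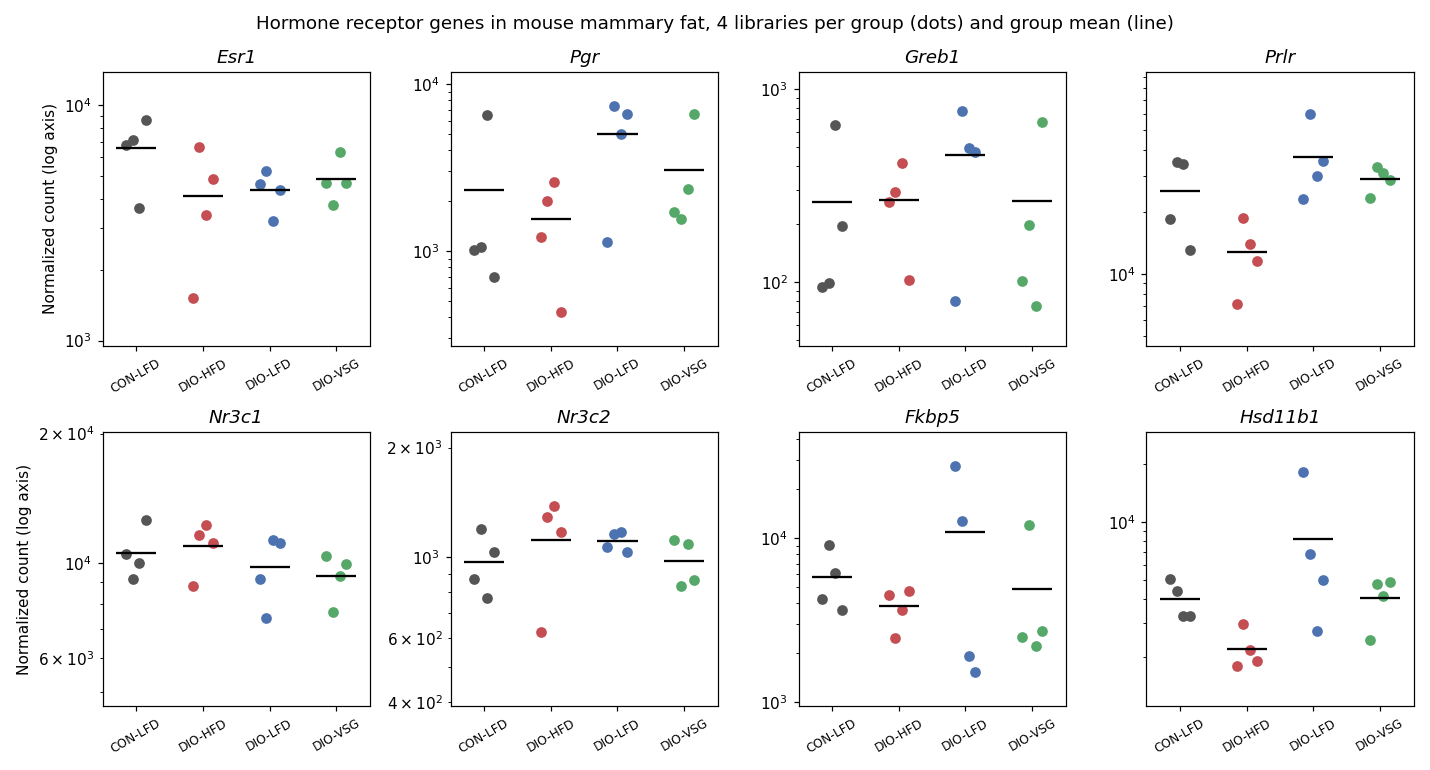
Normalized counts (log axis) of the 8 genes in each of the 16 libraries, by group. Each dot is 1 mouse and each line the mean of 4 mice. Prlr and Hsd11b1 sit low in DIO-HFD, while Pgr, Greb1 and Fkbp5 spread several-fold inside a group.

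Each weight-loss group and the lean control were compared with DIO-HFD, and with each other, by limma. In DIO-HFD relative to CON-LFD, 0 of the 8 genes passed an adjusted P below 0.05 and 1 (Prlr) had an unadjusted P below 0.05, beside 0.0377% and 12.9% of all genes tested. In DIO-VSG relative to DIO-HFD, 0 passed the adjusted and 1 (Prlr) the unadjusted threshold, beside 0% and 13.2% of all genes. In DIO-LFD relative to DIO-HFD, 0 passed the adjusted and 2 (Prlr and Hsd11b1) the unadjusted threshold, beside 0% and 8.53% of all genes. The limma-voom fit to the recovered reads also gave 0 adjusted calls among the 8 in each of these comparisons. These 3 comparisons share the DIO-HFD libraries, so their values are not independent of each other.

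The weight-loss groups were also compared with CON-LFD and with each other. For DIO-VSG against DIO-LFD the counts were 0 adjusted and 0 unadjusted, beside 0% and 9.71% of all genes. For DIO-VSG against CON-LFD they were 0 and 0, beside 0% and 17.8%, and for DIO-LFD against CON-LFD 0 and 0, beside 0.00471% and 6.26%. A test for any difference among the 4 groups gave 0 adjusted calls and 2 unadjusted ones (Prlr, adjusted P = 0.343, and Hsd11b1, adjusted P = 0.379), beside 0% and 12.7% of all genes. The median log2 fold change of the 8 genes was -0.38 in DIO-HFD against CON-LFD, 0.19 in DIO-VSG against DIO-HFD and 0.57 in DIO-LFD against DIO-HFD, where the medians of all genes were 0.02, 0.02 and 0.01.

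**Figure D2:**
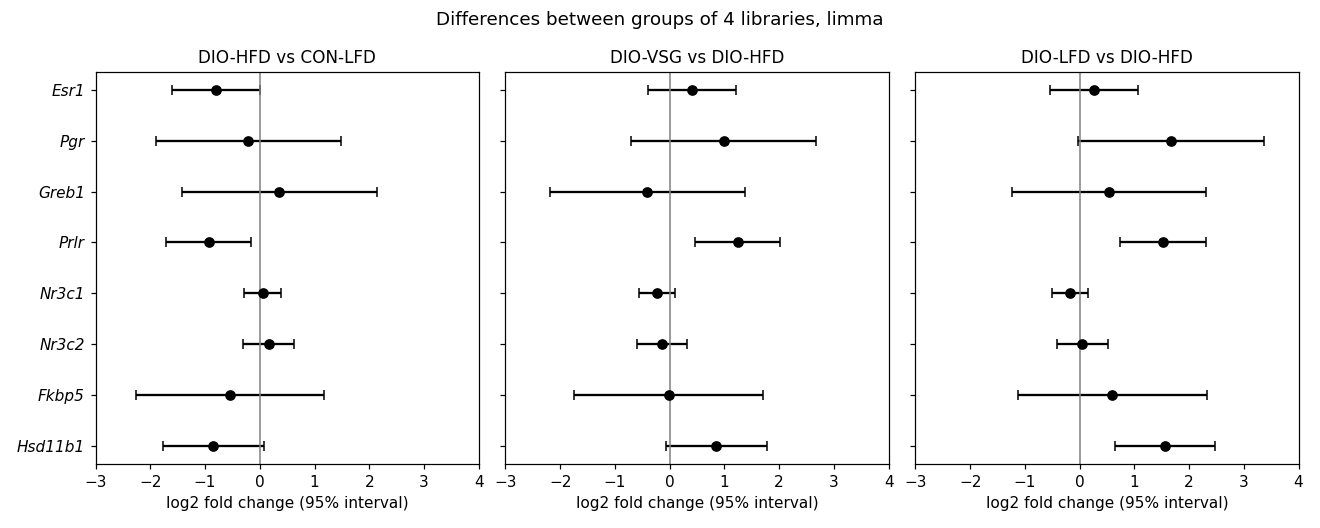
Log2 fold change of each gene (point) with its 95% interval (bar) in the 3 comparisons that involve DIO-HFD, 4 libraries per group. The intervals of Prlr exclude 0 in all 3 panels and that of Hsd11b1 in DIO-LFD vs DIO-HFD, before adjustment over all genes. The intervals of Pgr, Greb1 and Fkbp5 are the widest.

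Prlr was lowest in the obese mice. This gene (ENSMUSG00000005268.20, chromosome 15, 10177238 to 10349180, plus strand, GRCm38) had normalized counts of 7188, 18775, 13923 and 11530 in DIO-HFD replicates 1 to 4, and 18399, 35122, 34272 and 13063 in CON-LFD replicates 1 to 4. The DIO-LFD libraries held 23071, 59882, 29930.1 and 35527, and the DIO-VSG libraries 23300, 33112, 31034 and 28583. Every library of both weight-loss groups was above every DIO-HFD library, whereas CON-LFD replicates 1 and 4 fell inside the DIO-HFD range.

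The group means of Prlr were ordered DIO-LFD (37103 ± 16018, SD, n = 4), DIO-VSG (29007 ± 4231), CON-LFD (25214 ± 11170.2) and DIO-HFD (12854 ± 4833). Neighbours in this order did not differ beyond their spread between DIO-LFD and DIO-VSG (adjusted P = 0.734) or between DIO-VSG and CON-LFD (adjusted P = 0.638). Relative to DIO-HFD, Prlr was 2.87-fold higher in DIO-LFD (log2 fold change 1.52, 95% interval 0.74 to 2.3, adjusted P = 0.317). In DIO-VSG it was 2.37-fold higher (1.25, 0.47 to 2.02, adjusted P = 0.259). Relative to CON-LFD it was 0.523-fold in DIO-HFD (-0.93, -1.71 to -0.16, adjusted P = 0.307). None of these passed the adjusted threshold. Of the 8 genes, 1 (Prlr) did not overlap between DIO-VSG and DIO-HFD and 1 (Prlr) between DIO-LFD and DIO-HFD, beside 6.59% and 4.51% of all genes.

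The log2 difference of Prlr between DIO-HFD and CON-LFD kept its sign whichever library was left out, from -1.21 without CON-LFD replicate 4 to -0.68 without DIO-HFD replicate 1. Its unadjusted P was above 0.05 in 3 of these fits, at 0.0748 (-0.74) without CON-LFD replicate 2, 0.0724 (-0.75) without CON-LFD replicate 3 and 0.0814 without DIO-HFD replicate 1. The differences from both weight-loss groups held at an unadjusted P of at most 0.0165 whichever library was left out.

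Prlr moved with markers of luminal epithelial cells, the ductal cells of the gland. The 3 protein-coding genes most like it over the 16 libraries, of 15451 searched, were Gipc2, Mlph (melanophilin) and Krt7 (keratin 7, a luminal keratin), each at r = 0.97. The mean log2 level of 10 luminal epithelium markers and Prlr had a Pearson r of 0.73 over the 16 libraries. Its permutation P was 0.00169 (adjusted P = 0.0169 over the 30 relations given a permutation test). Spearman rho was 0.65 (permutation P = 0.00819, adjusted P = 0.0696). Correlations of the genes with the other lists were also computed but are not among the 30. The adjusted P values therefore do not cover all relations looked at and may be too small. Without the 2 libraries farthest from the median marker level r was 0.64, and for deviations from the group means it was 0.65. Within groups of 4 it ran from 0.3 in DIO-VSG to 1.0 in DIO-LFD. Of the 10 markers, 9 correlated positively with Prlr, from -0.05 for Ehf to 0.97 for Krt7, where 50.1% of all genes did. In bulk tissue, fewer cells of a type and less RNA per cell cannot be told apart.

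The luminal markers themselves were low in DIO-HFD. Their summed levels ran from 30238 to 60877 in DIO-HFD, 46087 to 89296 in CON-LFD, 51534 to 129865 in DIO-LFD and 48435 to 73428 in DIO-VSG, and none of the 10 was at 0 in any library. In DIO-HFD against CON-LFD 0 of the 10 were higher and 5 were lower at unadjusted P, beside 12.9% of all genes, with a median log2 fold change of -0.79. In DIO-LFD against DIO-HFD 7 of 10 were higher at unadjusted P, beside 8.53% of all genes (median 0.89), and in DIO-VSG against DIO-HFD 2 of 10 were, beside 13.2% (median 0.36, and 0.2 to 0.57 with 1 library left out). None passed the adjusted threshold in these 3 comparisons. The other marker lists had patterns of their own. The 7 skeletal muscle markers had median log2 fold changes of -1.42 in DIO-HFD against CON-LFD (0 of 7 positive), 1.91 in DIO-LFD against DIO-HFD and 1.55 in DIO-VSG against DIO-HFD, and the 5 keratinocyte markers 1.55, -0.76 and -1.57. In the same order the medians were -0.45, 0.38 and 0.00 for the 7 adipocyte markers and 0.33, -0.04 and -0.46 for the 7 endothelial markers, of which 4 were lower at unadjusted P in DIO-VSG against DIO-HFD. They were 1.16, 1.54 and 2.8 for the 9 B cell markers and 0.62, 0.83 and 2.16 for the 8 T cell markers. For the 5 basal epithelium markers, from the outer cell layer of the same ducts, they were -0.27, -0.29 and -0.76, with 0 of 5 positive in DIO-VSG against DIO-HFD. Single libraries weigh on the muscle and keratinocyte medians. Muscle markers summed to 129543 normalized counts in DIO-LFD replicate 4, against 1372 to 1814 in the rest of its group. Keratinocyte markers summed to 11044 in DIO-HFD replicate 4, against 1311 to 1732 in the rest of its group. With the luminal marker score as a covariate, the log2 fold change of Prlr was -0.25 in DIO-HFD against CON-LFD, 0.79 in DIO-LFD against DIO-HFD and 0.92 in DIO-VSG against DIO-HFD. In that order limma gave unadjusted P of 0.512, 0.057 and 0.0104 and adjusted P of 1.0, 1.0 and 0.402. With a lymphoid score as covariate instead, the log2 fold changes were -0.89 (adjusted P = 0.249), 1.58 (adjusted P = 0.0898) and 1.37 (adjusted P = 0.268) in the same order, about as large as without it. Scores of the other cell types were not fitted.

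**Figure D3:**
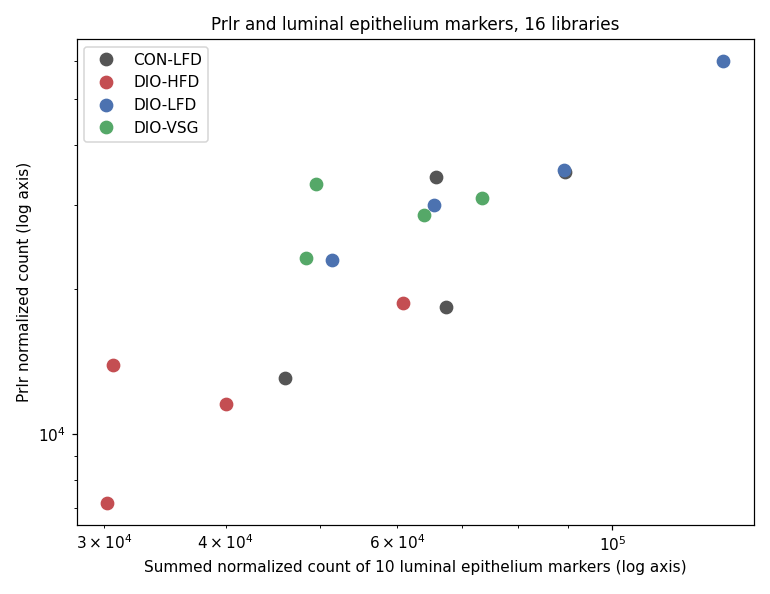
Prlr against the summed level of 10 luminal epithelium markers (normalized counts, both axes log), 1 point per library, colored by group. Prlr tends to be higher where marker RNA is higher, with exceptions within groups, and the 4 DIO-HFD libraries lie at 30238 to 60877 marker counts, with Prlr at 7188 to 18775.

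Downstream of the prolactin receptor the picture was mixed. Of 14 prolactin signalling and milk genes, 12 were in the table and 11 were tested, and 0 passed the adjusted threshold. In DIO-LFD against DIO-HFD, 3 of 11 were higher at unadjusted P, beside 8.53% of all genes: Stat5a (STAT5A, which carries the prolactin signal to the nucleus, log2 fold change 0.58, adjusted P = 0.584), Socs2 (a feedback inhibitor of cytokine signalling) and Csn3 (kappa casein, 1.19, adjusted P = 0.552). The list's median was 0.09 there, 0.33 in DIO-VSG against DIO-HFD and 0.14 in DIO-HFD against CON-LFD, where Socs3, another feedback inhibitor, was the 1 gene of 11 higher at unadjusted P (0.59, adjusted P = 0.282), beside 12.9% of all genes. Milk transcripts were scarce. Csn1s1 (alpha S1 casein) was at 0 in all 4 DIO-VSG libraries, where 0 counts allow at most 3.11 normalized counts in any of them, and it reached 43.5 in 1 DIO-HFD library. Lalba (alpha-lactalbumin) was too low to test.

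Esr1 (ENSMUSG00000019768.16, chromosome 10, 4611593 to 5005614, plus strand) was most abundant in the lean controls. Its normalized counts were 6796, 7109, 3646 and 8668 in CON-LFD replicates 1 to 4 and 1524, 6619.9, 3417 and 4868 in DIO-HFD. They were 4617, 5276, 3223 and 4360.1 in DIO-LFD and 4672, 3776, 6314 and 4677 in DIO-VSG. The lowest library was DIO-HFD replicate 1, and all groups overlapped.

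The means of Esr1 were ordered CON-LFD (6555 ± 2105), DIO-VSG (4859.8 ± 1058), DIO-LFD (4369 ± 856) and DIO-HFD (4107 ± 2163), SD with n = 4 each, and no neighbours in this order differed beyond their spread. The widest gap, DIO-HFD against CON-LFD, was -0.8 on the log2 scale (95% interval -1.6 to 0.01, adjusted P = 0.391). It was -0.38 (adjusted P = 0.644) without DIO-HFD replicate 1 and -1.06 (adjusted P = 0.152) without CON-LFD replicate 3, and -0.15 with the luminal marker score as a covariate. Weight loss by diet left Esr1 at 0.26 above DIO-HFD (-0.55 to 1.06) and by surgery at 0.41 (-0.4 to 1.21), and both differences were 0 or below without DIO-HFD replicate 1 (-0.16 and 0.00).

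Esr1 RNA varied with markers of the cells in each pad. It correlated positively with 7 of 7 adipocyte markers (r from 0.31 for Plin4 to 0.78 for Lipe) and with 10 of 10 luminal markers (0.26 to 0.71). So it did with 4 of 4 markers of hormone-sensing luminal cells, from 0.22 for Prom1 to 0.8 for Foxa1, their pioneer factor. With Pgr these 4 markers ran from -0.42 for Cited1 to 0.58 for Prom1. Esr1 correlated negatively with all 9 B cell and all 8 T cell markers (-0.53 to -0.4). The most similar genes were Urah (0.92), Abhd3 (0.9) and Clip4 (0.89). With a lymphoid score as covariate, Esr1 was 0.77 higher on the log2 scale in DIO-VSG than in DIO-HFD (adjusted P = 0.485). The correlations are descriptions over 16 libraries that share tissue makeup, and scores of the other cell types were not fitted.

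Pgr (ENSMUSG00000031870.16, chromosome 9, 8899833 to 8968611, plus strand) varied widely between mice of 1 group. Its normalized counts were 1011, 1052, 6512 and 694 in CON-LFD replicates 1 to 4, 1208, 1988, 2583 and 433 in DIO-HFD, 1123 (replicate 1), 7388, 5006 and 6629 in DIO-LFD, and 1718, 1557, 2347 and 6596 in DIO-VSG. The 5 libraries with most Pgr lay between 5006 and 7388 and the other 11 between 433 and 2583. High libraries made up 3 of 4 in DIO-LFD, 1 of 4 in each of CON-LFD and DIO-VSG, and 0 of 4 in DIO-HFD.

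The group means of Pgr ran from DIO-LFD (5037 ± 2792) through DIO-VSG (3054 ± 2385) and CON-LFD (2317 ± 2801) to DIO-HFD (1553 ± 935), SD with n = 4 each, and no neighbours differed beyond their spread. Pgr was 3.18-fold higher in DIO-LFD than in DIO-HFD (log2 fold change 1.67, 95% interval -0.03 to 3.36, adjusted P = 0.595), the largest fold change of the 8 genes in the 3 comparisons with DIO-HFD. It was 2.29 on the log2 scale without DIO-LFD replicate 1 and 1.15 without DIO-HFD replicate 4. Against CON-LFD, the DIO-HFD difference was -0.21 (-1.9 to 1.48) and turned to 0.5 without CON-LFD replicate 3.

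Greb1 (ENSMUSG00000036523.16, chromosome 12, 16670615 to 16800886, minus strand) had its highest levels in the same 5 mice as Pgr. Its normalized counts were 93.8, 98.6, 651 and 195 in CON-LFD replicates 1 to 4, 261, 291, 413 and 102 in DIO-HFD, 79.7, 767, 494 and 472 in DIO-LFD, and 102, 198, 74.9 and 677 in DIO-VSG. The 5 libraries highest in Pgr held 472 to 767 normalized counts of Greb1 and the other 11 held 74.9 to 413. Esr1 did not share this split, at 3223 to 5276 normalized counts in those 5 libraries and 1524 to 8668 in the other 11. Its r over the 16 libraries was -0.22 with Pgr (permutation P = 0.426) and -0.35 with Greb1 (permutation P = 0.185). Over the 16 libraries Pgr and Greb1 had a Pearson r of 0.8 (permutation P = 0.00032, adjusted P = 0.0048 over 30 relations) and a Spearman rho of 0.75 (permutation P = 0.0011, adjusted P = 0.033). The r was 0.76 without the 2 libraries farthest from the median of Pgr and 0.87 for deviations from the group means. Within groups of 4 it was 0.78 to 0.99. Among the 11 libraries lower in Pgr, a choice made on Pgr itself after its values were seen and so over a narrower range, r was 0.32. Pgr also correlated with Prlr, at r = 0.66 (permutation P = 0.00561, adjusted P = 0.0421), with a rho of 0.64 (permutation P = 0.0101, adjusted P = 0.0696), 0.51 without 2 libraries and 0.56 for deviations from the group means, and within groups of 4 it was 0.66 in CON-LFD, 0.39 in DIO-HFD, 0.79 in DIO-LFD and 0.00 in DIO-VSG.

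The means of Greb1 were 453 ± 283 in DIO-LFD, 267 ± 128 in DIO-HFD, 263 ± 281 in DIO-VSG and 259.7 ± 265 in CON-LFD, and no pair of groups differed beyond its spread (log2 fold change 0.54 in DIO-LFD against DIO-HFD, 95% interval -1.24 to 2.31, adjusted P = 0.941).

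**Figure D4:**
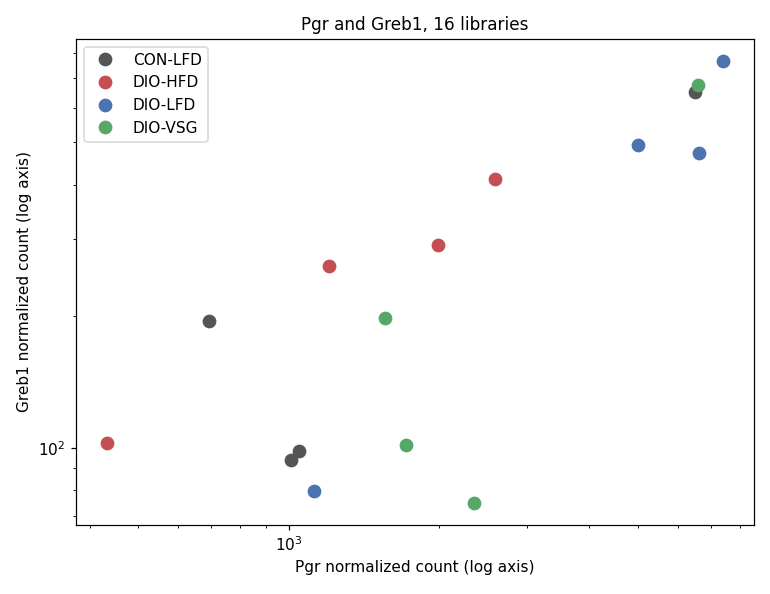
Greb1 against Pgr in normalized counts (both axes log), 1 point per library, colored by group. The 5 libraries with 5006 to 7388 Pgr counts, 3 of them DIO-LFD, are also the 5 highest in Greb1, and none is DIO-HFD.

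The genes most like Pgr were Gm16485 (r = 0.99), Zbtb8a (0.94) and Atp13a3 (0.91). Gm16485 lies on the same strand of chromosome 9, from 8971791 to 8975773 and starts 3179 bases beyond the annotated end of Pgr. Those most like Greb1 were Vmn1r38 (at only 0.0 to 39.1 normalized counts), Zbtb8a and Aoc1, each at r = 0.85. Zbtb8a, which overlaps Zbtb8os on the opposite strand, was thus among the nearest genes of both.

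Known target genes of these receptors were examined next. Of 10 estrogen-responsive genes 8 were in the table and 7 were tested, and 0 passed the adjusted threshold. Across the 7, r with Pgr ran from -0.39 for Igfbp4 to 0.67 for Areg, with a median of 0.18 and 5 of 7 positive, where 51.8% of all genes were. Areg (amphiregulin, the epidermal growth factor receptor ligand that relays estrogen signals to neighbouring cells) ranged from 141 to 3453 normalized counts. Its log2 fold changes were -0.77 in DIO-HFD against CON-LFD, 0.5 in DIO-LFD against DIO-HFD and 0.41 in DIO-VSG against DIO-HFD (adjusted P = 0.809, 0.96 and 0.858). The genes with the smallest P in these comparisons were Rara, the retinoic acid receptor alpha (0.42 higher in DIO-HFD than CON-LFD, adjusted P = 0.246), Xbp1, a secretory pathway transcription factor (0.55 higher in DIO-LFD than DIO-HFD, adjusted P = 0.554), and Igfbp4, a binding protein of insulin-like growth factors (-0.71 in DIO-VSG against DIO-HFD, adjusted P = 0.274). The list's medians were 0.03, 0.12 and -0.04 in the same order.

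The 4 progesterone-responsive paracrine genes were too few to read a count from, since 0 of 4 had an unadjusted P below 0.05 beside 8.53% to 13.2% of all genes. Wnt4, which drives ductal side branching, was -0.6 in DIO-HFD against CON-LFD, 0.66 in DIO-LFD against DIO-HFD and 0.4 in DIO-VSG against DIO-HFD (adjusted P = 0.593, 0.763 and 0.632). Tnfsf11 (RANKL, the paracrine signal downstream of progesterone) ranged from 7.64 to 699 normalized counts, with the highest library in CON-LFD, and its difference was 1.74 in DIO-VSG against DIO-HFD (SE 1.27, adjusted P = 0.492). Across this list r with Pgr ran from -0.47 for Calca to 0.23 for Tnfsf11.

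Among 11 other steroid receptors 10 were tested and 0 passed the adjusted threshold. Esr2 (estrogen receptor beta) was at 0 to 17 normalized counts and was not tested. Esrra, an orphan receptor of mitochondrial gene programmes, was -0.42 in DIO-HFD against CON-LFD (adjusted P = 0.267) and 0.38 in DIO-VSG against DIO-HFD (adjusted P = 0.32). The membrane progestin receptor gene Paqr7 was -0.7 in DIO-LFD against DIO-HFD (adjusted P = 0.463).

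Hsd11b1 (ENSMUSG00000016194.14, chromosome 1, 193221634 to 193264075, minus strand) was low in the obese mice. Its normalized counts were 1795, 2964, 2184 and 1922 in DIO-HFD replicates 1 to 4 and 5089, 4371, 3262 and 3258 in CON-LFD. They were 18169, 6855, 2718 and 5026 in DIO-LFD and 2459, 4768, 4161 and 4866 in DIO-VSG. All 4 CON-LFD libraries were above all 4 DIO-HFD libraries (1 of the 8 genes without overlap in that comparison, beside 4.76% of all genes), while 1 library in each weight-loss group fell inside the DIO-HFD range. DIO-LFD replicate 1 held far more than any other library.

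The means of Hsd11b1 were ordered DIO-LFD (8192 ± 6863, SD, n = 4), DIO-VSG (4063 ± 1114), CON-LFD (3995 ± 898) and DIO-HFD (2216 ± 524). DIO-LFD and DIO-VSG did not differ beyond their spread (adjusted P = 0.534), nor did DIO-VSG and CON-LFD (log2 fold change 0.00, 95% interval -0.92 to 0.92). Relative to DIO-HFD, Hsd11b1 was 2.95-fold higher in DIO-LFD (log2 fold change 1.56, 0.64 to 2.48, adjusted P = 0.398), and 1.06 on the log2 scale without DIO-LFD replicate 1. It was 1.81-fold higher in DIO-VSG (0.85, -0.07 to 1.77, adjusted P = 0.391) and 0.555-fold in DIO-HFD relative to CON-LFD (-0.85, -1.77 to 0.07, adjusted P = 0.425). The adjusted threshold was not reached. Hsd11b1 lies within the span of Lamb3, a laminin gene on the opposite strand whose mean was 1440 against 4620 for Hsd11b1, and the strand setting of the read counting is not given in the sources used here.

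The genes most like Hsd11b1 were Apoc3 (r = 0.91), Slc25a5 (0.89), the mitochondrial ADP/ATP carrier, and Car5b (0.87), a mitochondrial carbonic anhydrase. It correlated positively with 7 of 7 adipocyte markers (0.2 to 0.74, median 0.48), with 9 of 10 luminal markers (-0.02 to 0.69, median 0.45), and negatively with 7 of 7 stromal progenitor markers (-0.54 to -0.26). The reverse enzyme, Hsd11b2, was scarce at 18.5 to 66.6 normalized counts, with log2 fold changes of 0.19 in DIO-HFD against CON-LFD, -0.19 in DIO-LFD against DIO-HFD and -0.38 in DIO-VSG against DIO-HFD (adjusted P = 0.862, 0.955 and 0.586).

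Of 16 steroid metabolism enzymes 12 were in the table and tested, and 0 passed the adjusted threshold. Hsd17b12, an enzyme of estradiol formation and very long chain fatty acid elongation, was the 1 gene of 12 with an unadjusted P below 0.05 in each of the 3 comparisons, a share near that of all genes (12.9%, 8.53% and 13.2%). It was -0.88 in DIO-HFD against CON-LFD (adjusted P = 0.247), 1.02 in DIO-LFD against DIO-HFD (adjusted P = 0.399) and 1.01 in DIO-VSG against DIO-HFD (adjusted P = 0.246). Cyp19a1 (aromatase) was not among the genes listed. The list's medians were 0.08, -0.07 and -0.24 in the same order.

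Nr3c1 (ENSMUSG00000024431.15, chromosome 18, 39410545 to 39519421, minus strand) was among the steadiest members. Its normalized counts were 10496, 9173, 9988 and 12599.7 in CON-LFD replicates 1 to 4, 8818, 11632, 12217 and 11125 in DIO-HFD, 9180.1, 7426, 11278 and 11131 in DIO-LFD, and 10381, 7669, 9331 and 9926 in DIO-VSG. The 4 groups overlapped throughout. The means were 10948 ± 1488 in DIO-HFD, 10564 ± 1462 in CON-LFD, 9754 ± 1823 in DIO-LFD and 9327 ± 1186 in DIO-VSG. The log2 difference was 0.05 in DIO-HFD against CON-LFD (95% interval -0.28 to 0.38, adjusted P = 0.914), -0.18 in DIO-LFD (-0.51 to 0.15) and -0.23 in DIO-VSG (-0.56 to 0.1) against DIO-HFD. The sign in DIO-HFD against CON-LFD turned with the luminal covariate and with 1 library left out. The most similar genes were Kctd7 and Zfp947 (0.91 each) and Shc3 (0.89, at only 1.98 to 20.7 normalized counts).

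Nr3c2 (ENSMUSG00000031618.13, chromosome 8, 76899442 to 77245012, plus strand) was measured at 871, 1198, 770.3 and 1035 normalized counts in CON-LFD replicates 1 to 4, at 624, 1287, 1379 and 1168 in DIO-HFD, at 1068, 1158, 1173 and 1034 in DIO-LFD, and at 1113, 835, 1086 and 862 in DIO-VSG. The DIO-HFD group held both the lowest and the highest library. The means were 1114 ± 338 in DIO-HFD, 1108 ± 67.8 in DIO-LFD, 974 ± 146 in DIO-VSG and 968 ± 188 in CON-LFD, and the differences were 0.16 in DIO-HFD against CON-LFD (-0.3 to 0.62), 0.05 in DIO-LFD against DIO-HFD (-0.41 to 0.51) and -0.14 in DIO-VSG against DIO-HFD (-0.6 to 0.32). The DIO-VSG difference from DIO-HFD was -0.4 without DIO-HFD replicate 1, with an unadjusted P below 0.05, and -0.02 without DIO-HFD replicate 3. Like Esr1, Nr3c2 correlated negatively with all B and T cell markers (-0.64 to -0.5) and positively with 7 of 7 adipocyte markers (0.37 to 0.69). The most similar genes were Magix and Dynlrb2 (0.86 each, Dynlrb2 at only 0.925 to 19.9 normalized counts) and Bmp5 (0.85).

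Fkbp5 (ENSMUSG00000024222.17, chromosome 17, 28399094 to 28517527, minus strand) is itself induced by glucocorticoids and holds their receptor in a low-affinity state. Its normalized counts were 4274, 9092, 6127 and 3640.5 in CON-LFD replicates 1 to 4, 4504, 2468, 3634 and 4775 in DIO-HFD, 27642, 12690.1, 1906 and 1520.1 in DIO-LFD, and 2497, 12041, 2209 and 2726 in DIO-VSG. DIO-LFD held both the 2 highest and the 2 lowest libraries, and DIO-VSG replicate 2 stood far above the other 3 of its group. The highest library exceeded the lowest 18.2-fold in DIO-LFD and 1.94-fold in DIO-HFD.

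The means of Fkbp5 were 10939 ± 12280 in DIO-LFD, 5783 ± 2445 in CON-LFD, 4868 ± 4787 in DIO-VSG and 3845 ± 1039 in DIO-HFD. No pair of groups differed beyond its spread, and the intervals were wide: 0.6 (-1.12 to 2.32) in DIO-LFD and -0.02 (-1.74 to 1.7) in DIO-VSG against DIO-HFD, and -0.54 (-2.26 to 1.18) in DIO-HFD against CON-LFD (adjusted P = 0.93, 0.99 and 0.82). Without DIO-LFD replicate 1 the difference of DIO-LFD from DIO-HFD was -0.16.

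Foxo3, a forkhead factor of the fasting response, was the gene most like Fkbp5 (r = 0.97), followed by the metallothionein genes Mt1 (0.94) and Mt2 (0.91), which were on the glucocorticoid-responsive list. Mt1 held 11618 normalized counts in DIO-LFD replicate 1, 5648 in DIO-LFD replicate 2, 4791 in DIO-VSG replicate 2 and 3438 in CON-LFD replicate 2, its 4 highest libraries, and these were also the 4 highest for Fkbp5. All 17 glucocorticoid-responsive genes correlated positively with Fkbp5, from 0.2 for Dusp1 to 0.94 for Mt1 with a median of 0.67, where 50.1% of all genes did. Their mean log2 level and Fkbp5 had a Pearson r of 0.89 (permutation P = 2e-05, adjusted P = 0.0006 over 30 relations). Those 30 leave out the correlations with most other lists, so this adjusted P may also be too small. The r was 0.77 without the 2 libraries farthest from the median of Fkbp5, and 0.9 for deviations from the group means. Within groups of 4 it was 0.85 to 1.0 except in DIO-HFD, where it was -0.76. Spearman rho was 0.7 (permutation P = 0.00335, adjusted P = 0.0503). All 17 also correlated positively with Hsd11b1 (0.28 to 0.74). Other lists moved with Fkbp5 as well. It correlated negatively with 7 of 7 stromal progenitor markers (-0.66 to -0.26, median -0.47) and positively with 6 of 7 endothelial markers (median 0.3) and 9 of 11 receptor chaperones (median 0.32). DIO-LFD replicate 1, the highest in Fkbp5, had the lowest stromal progenitor score of the 16 libraries (mean log2 level -1.97 relative to the mean over libraries) and the highest adipocyte (0.76) and endothelial (0.61) scores. The part of these cell types in the Fkbp5 values was not tested.

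The glucocorticoid receptor gene ran the other way. Nr3c1 and Fkbp5 had a Pearson r of -0.63 over the 16 libraries (permutation P = 0.00842, adjusted P = 0.0505 over 30 relations) and a Spearman rho of -0.62 (permutation P = 0.0116, adjusted P = 0.0696). The r was -0.46 without the 2 libraries farthest from the median of Nr3c1 and -0.73 for deviations from the group means, and within groups of 4 it ran from -0.92 in DIO-VSG to -0.5 in DIO-HFD. The 4 libraries highest in Fkbp5 were all among the 5 lowest in Nr3c1. Cell markers moved with Nr3c1 too. It correlated positively with 7 of 7 stromal progenitor markers (0.23 to 0.64), with which Fkbp5 correlated negatively, and with 7 of 7 adipocyte markers (0.01 to 0.6). With all B and T cell markers its r was negative (-0.47 to -0.28). The part of tissue makeup in the relation of Nr3c1 and Fkbp5 was not tested. Hsd11b1 and Fkbp5 had an r of 0.6 (permutation P = 0.0154, adjusted P = 0.077) and a rho of 0.31 (permutation P = 0.24, adjusted P = 0.49), and r was 0.34 without DIO-HFD replicate 1 and DIO-LFD replicate 1. Within groups of 4 it was 0.17 in CON-LFD, -0.98 in DIO-HFD, 0.87 in DIO-LFD and 0.42 in DIO-VSG.

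**Figure D5:**
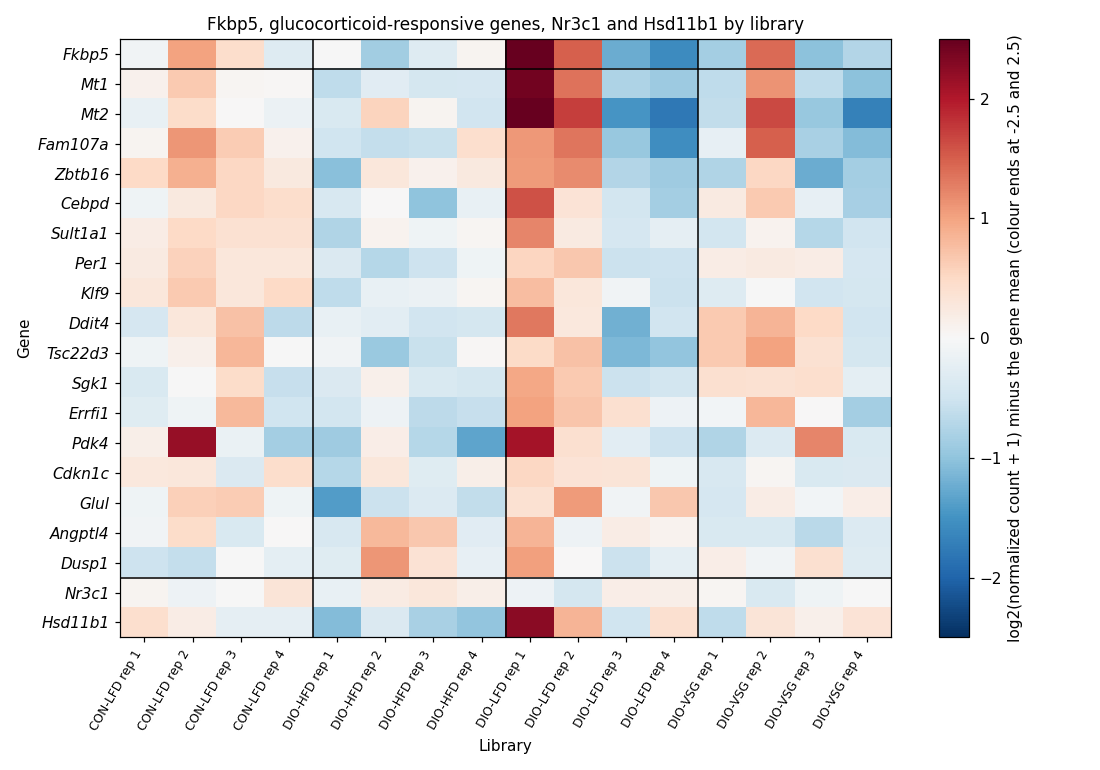
Log2 level of Fkbp5, the 17 glucocorticoid-responsive genes (ordered by their r with Fkbp5), Nr3c1 and Hsd11b1 in each library, as the difference from the gene's mean over 16 libraries (color). DIO-LFD replicates 1 and 2, DIO-VSG replicate 2 and CON-LFD replicate 2 are high for Fkbp5, Mt1 and the genes next to it, while DIO-LFD replicates 3 and 4 are low.

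Between groups, 0 of the 17 glucocorticoid-responsive genes passed the adjusted threshold in any of the 3 comparisons, and the counts at unadjusted P were close to those over all genes. In DIO-HFD against CON-LFD, 2 of 17 were higher by sign, the median log2 fold change was -0.59, and 3 were lower at unadjusted P, beside 12.9% of all genes, namely Glul (glutamine synthetase, -0.98, adjusted P = 0.232), Per1 (a clock gene and direct receptor target, -0.77, adjusted P = 0.257) and Klf9 (a Krüppel-like factor, -0.66, adjusted P = 0.263). In DIO-LFD against DIO-HFD, 16 of 17 were higher by sign with a median of 0.41, and Glul (1.23, adjusted P = 0.305) and Errfi1 (0.95, adjusted P = 0.483) were higher at unadjusted P, beside 8.53% of all genes. The median was 0.07 without DIO-LFD replicate 1, 0.26 without replicate 2, 0.65 without replicate 3 and 0.62 without replicate 4. It was -0.24 without replicates 1 and 2 together, which were left out after they were seen to be high for these genes, so that a lower value followed from the choice. In DIO-VSG against DIO-HFD 10 of 17 were higher by sign with a median of 0.16, and -0.16 without DIO-VSG replicate 2. At unadjusted P 1 of 17 was higher and 1 was lower there, beside 13.2% of all genes, and Glul had the smallest P. Tsc22d3 (GILZ, an anti-inflammatory receptor target) was -0.59 in DIO-HFD against CON-LFD and 0.16 and 0.78 in DIO-LFD and DIO-VSG against DIO-HFD (adjusted P = 0.597, 0.97 and 0.406).

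The chaperones and coregulators of the receptors differed little between groups. Of 11 receptor chaperones 0 passed the adjusted threshold, with medians of -0.01, 0.05 and -0.02 in DIO-HFD against CON-LFD, DIO-LFD against DIO-HFD and DIO-VSG against DIO-HFD. Fkbp4 (FKBP52, the counterpart of FKBP51) was at -0.03, 0.07 and -0.11 in the same comparisons (SE 0.17 each). The heat shock cochaperone Dnaja1 had the smallest P of the list, at -0.22, 0.1 and 0.22 (adjusted P = 0.32, 0.847 and 0.327). Of 10 nuclear receptor coregulators 0 passed, with medians of 0.04, -0.08 and 0.04. The coactivator Ncoa1 was -0.22 in DIO-HFD against CON-LFD (adjusted P = 0.328), and the corepressor Ncor1 was -0.19 in DIO-LFD against DIO-HFD (adjusted P = 0.752).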

How the data were processed

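Total RNA libraries of 16 mouse mammary fat pads were sequenced in paired-end reads. The authors deposited 1 table of variance-stabilized log2 values made with DESeq2, for genes with at least 10 reads in all. The submitters' processing notes name TopHat2 2.0.7, HTSeq 0.5.3p9 and the mm10 build, whereas the study's methods name STAR and salmon, and which made the table is not settled here. The transformation was inverted to normalized counts. Division by the value of 1 read in a library then returned whole numbers everywhere (100% of values, tolerance 0.0001), so the depth of each library is known (46907377 to 57610899 reads, size factors 0.9036 to 1.2204). Intervals on counts of 0 used a floor of 3 reads and cover counting error only. No column of values was left without a sample (0 left).

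Genes that reached 10 normalized counts in 4 or more libraries were fitted with limma 3.58.1 (R 4.3.3) as log2(normalized count + 1) with an intensity trend, 1 term per group over all 16 libraries, and P values were adjusted by Benjamini-Hochberg over all genes tested. A fold change is on this scale. The model was tested on simulated data first. Coordinates and exon lengths came from GENCODE M21 (GRCm38), matched by symbol. Correlations used 100000 permutations and were two-sided. Alternatives were the deposited log2 values, quantile normalization, a pseudocount of 4, no filter, 2-group fits, limma-voom on the recovered reads, a replicate block and each library left out. Luminal and lymphoid marker scores were also tried as covariates. Without-library values of the gene lists, the joint omission of 2 libraries and the split of libraries by Pgr were chosen after seeing the data.

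The 8 genes and the gene lists were chosen with earlier results of these data known. Beyond the 8, the text names the gene with the smallest P of each list in each comparison with DIO-HFD, a fixed set (Tsc22d3, Per1, Areg, Wnt4, Tnfsf11, Stat5a, Hsd11b2, Cyp19a1, Fkbp4, Esr2) and the 3 protein-coding genes most like each member by Pearson r of log2 levels. Some genes that this rule covers are not reported here. Other genes were named after their values were seen. Group labels and RNA source come from the labels, one of which speaks of DNA extraction for these RNA libraries.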

Additional observations from a re-analysis of the deposited data

Results flagged for a closer look

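Fkbp5 in DIO-VSG replicate 2 stood apart from the other libraries of its group. It held 12041 normalized counts, against 2209, 2497 and 2726 in the other 3. On the log2 scale its gap to the nearest library was 0.876 of the group's range, above the 95% limit of Dixon's test for 4 samples. It was the 1 such case on this scale among the 32 sets of 4 libraries examined. Chance gives about 1 in 20, so that more than 1 of 32 would be no surprise. On the scale of normalized counts the ratio was 0.947 for this library, and Pgr also passed in CON-LFD replicate 3 (0.939) and DIO-VSG replicate 4 (0.843). Mt1 was also highest in that library within DIO-VSG, at 4791 normalized counts.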

How the results depend on the processing

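None of the 8 genes passed the adjusted threshold under any alternative (smallest adjusted P = 0.0898, limma, Prlr in DIO-LFD against DIO-HFD with a lymphoid score as covariate). Of 432 log2 fold changes under 9 settings other than leaving out a library, 13 reversed sign, and the cause was not tested. With the luminal score as covariate, these were 0.00 for Pgr and -0.05 for Nr3c1 (DIO-HFD against CON-LFD), 0.06 for Fkbp5 (DIO-VSG against DIO-HFD), -0.43 for Esr1 and -0.18 for Nr3c2 (DIO-LFD against DIO-HFD) and 0.13 for Prlr (DIO-VSG against DIO-LFD). With the lymphoid score they were 0.13 for Nr3c2 and 0.04 for Fkbp5 (DIO-VSG against DIO-HFD) and 0.11 for Esr1 (DIO-VSG against CON-LFD). Quantile normalization gave 0.01 for Fkbp5 (DIO-VSG against DIO-HFD) and 0.02 for Nr3c1 (DIO-VSG against DIO-LFD), and limma-voom -0.03 for Nr3c2 (DIO-LFD against DIO-HFD) and 0.08 for Greb1 (DIO-VSG against CON-LFD). 

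The number of the 8 genes with an unadjusted P below 0.05 moved as follows. A fit of the 2 groups alone gave 2 (Prlr and Hsd11b1) in DIO-HFD against CON-LFD and 2 (the same genes) in DIO-VSG against DIO-HFD. The luminal score gave 0 in DIO-HFD against CON-LFD, 1 (Hsd11b1) in DIO-LFD against DIO-HFD and 1 (Prlr) over the 4 groups. The lymphoid score gave 3 (Esr1, Prlr and Hsd11b1) in DIO-VSG against DIO-HFD, and 1 (Nr3c2) in each of DIO-VSG and DIO-LFD against CON-LFD. The replicate block gave 1 (Prlr) in DIO-LFD against CON-LFD and left the other counts within 1.5 times. Libraries of 1 number correlated from -0.609 to 0.534 in their deviations from group means, and 7 of 16 matched their own number best, so the numbers were not taken as pairs.

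Leaving out single libraries moved these counts over 0 to 2 (DIO-HFD against CON-LFD), 1 to 2 (DIO-VSG against DIO-HFD), 0 to 1 (DIO-VSG against DIO-LFD), 0 to 1 (DIO-LFD against CON-LFD) and 1 to 3 (any difference), and reversed 34 of 768 fold changes. In DIO-HFD against CON-LFD, Pgr ran from -0.57 to 0.5 and Nr3c1 from -0.01 to 0.15. In DIO-VSG against DIO-HFD, Esr1 ran from 0.00 to 0.7, Fkbp5 from -0.59 to 0.22, Greb1 from -1.05 to 0.01 and the median of the glucocorticoid-responsive genes from -0.16 to 0.47. In DIO-LFD against DIO-HFD, Esr1 ran from -0.16 to 0.55, Nr3c2 from -0.2 to 0.18 and Fkbp5 from -0.16 to 1.23, and the median of the glucocorticoid-responsive genes was -0.24 without DIO-LFD replicates 1 and 2. In DIO-VSG against DIO-LFD, Nr3c1 ran from -0.18 to 0.04 and Fkbp5 from -1.25 to 0.14. In DIO-VSG against CON-LFD, Nr3c2 ran from -0.09 to 0.13, Hsd11b1 from -0.1 to 0.23 and Greb1 from -0.69 to 0.55, and in DIO-LFD against CON-LFD Fkbp5 ran from -0.71 to 0.69.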
